A study of Mus musculus with 2 samples.

Results

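The 42 genes described here encode the subunits of the proteasome and its activators, and they were the rows, of 15348 listed genes, whose symbol was Psma, Psmb, Psmc, Psmd or Psme followed by a number. They were 8 alpha and 7 constitutive beta subunits of the core, 3 immunoproteasome beta subunits, 6 regulatory ATPases, 14 regulatory non-ATPase genes and 4 activators. Liver RNA came from female mice that the labels call NOG-TKm30, aged 16 weeks. NOG mice are immunodeficient and lack mature T, B and NK cells, and per the labels both groups carried a herpes simplex virus thymidine kinase mutant driven by the mouse transthyretin promoter, which is active in hepatocytes. The OTD mice were given ortho-toluidine, which is an aromatic amine, for 4 weeks, the first week at 0.6% and the other 3 weeks at 0.3%, while control mice were at 0%. The strain is the one of the titles and strain labels, whereas C57BL is the strain in the text on treatment, and the names of both data columns hold the word Wild, which no label explains. RNA of 3 control mice formed 1 pool and RNA of 5 OTD mice the other, with 1 library each, so no difference below has a replicate check and no p-value is given.

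The proteasome is the barrel-shaped protease that degrades ubiquitin-tagged proteins in the cytosol and nucleus. Its core stacks rings of alpha subunits, which form the gate, around rings of beta subunits, 3 kinds of which carry the proteolytic sites. A regulatory particle caps the barrel: its base unfolds substrates with a ring of ATPases, and its lid removes ubiquitin. Interferon-gamma induces the immunoproteasome subunits, which replace the constitutive catalytic ones, and the PA28 activator. When proteasome activity falls, the transcription factor NRF1 (Nfe2l1) is known to raise the genes of core and cap together. In hepatocytes the proteasome degrades much of the short-lived cytosolic protein, and aromatic amines are substrates of hepatic drug metabolism.

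Levels are CPM, scaled by the authors, and compare 1 gene between pools. Levels per kb divide them by the length of the longest coding transcript and compare genes. Ratios are OTD over control, with a 95% counting interval in parentheses that reflects the number of reads alone and no variation among mice or pools. A gene was called measured at a mean level of at least 10 (7602 genes, 39 members). Psmd9 and Psmb10 were the measured members of lowest mean level, and Psmd10, Psmb9 and Psma8 lay below the minimum. For log2 ratios 1 was added to both levels, so those of genes with few reads are drawn toward 0. The libraries held 13569189 control and 14685193 OTD reads, of which the members took 0.256% and 0.285%. All 6 hepatocyte markers were listed, with Alb at 81661 in control and 69694 in OTD. In whole liver RNA, fewer cells of a type and less RNA per cell cannot be told apart.

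Genes of the regulatory particle had a higher summed level in the OTD pool, by a small margin, while those of the core were near parity. Summed levels of its 19 measured genes were 1250.1 in control and 1401 in OTD, a ratio of 1.12 (1.10 to 1.14). The 14 measured core genes, alpha and constitutive beta, summed to 941 in control and 956 in OTD, a ratio of 1.02 (0.992 to 1.04). The reads of the regulatory genes relative to those of the core genes, a comparison within each library that no scaling touches, were 1.10 times as many in OTD as in control (1.07 to 1.14). The median log2 ratio was 0.15 over the regulatory genes and 0.03 over the core genes, beside −0.0063 over all 7602 measured genes. With a mean level of at least 50 these medians were 0.09 over 13 regulatory genes and 0.04 over 11 core genes. Regulatory transcripts were longer than core transcripts (median 1955 against 1162.5 bases), and log2 ratios moved with length over all genes, as described below. After subtracting the median of measured genes of like length and GC content, an alternative added after seeing the data, the medians were 0.16 and 0.07.

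Of the 39 measured members, 27 had a ratio above 1 and 12 below, where 48.4% of all measured genes were above 1 and 51.6% below. With both libraries scaled to the same total the members split 33 above and 6 below, and without the ribosomal RNA precursor Rn45s in that total 35 and 4, where 60.6% and 64.7% of all measured genes were above 1. Psma6, Psma7, Psmb6, Psmb7, Psmb8, Psmc6, Psmd7 and Psme3 had ratios just below 1 that turned above 1 under at least 1 of these scalings. The counting interval lay wholly above 1 for 14 members and wholly below 1 for 0, against 18.6% and 19.6% of all measured genes. Of the 5252 genes in the range of mean levels of the members, 48.9% had a ratio above 1, and 19.3% and 18.4% had an interval above and below 1. Of those 14, 10 were regulatory genes, 2 core genes, 1 an immunoproteasome gene and 1 an activator. No member was 2-fold higher or lower, a size reached by 0.21% of measured genes in each direction. None was 1.5-fold higher or lower on the log2 scale, where 1.51% and 0.908% were. The smallest size counted was a log2 ratio of 0.32, with the pseudocount: Psmd14 alone was that much higher, where 7.1% of measured genes were, and 0 members were that much lower, where 4.95% were. Psmb10 had a log2 ratio of 0.31, although its ratio without the pseudocount, 1.252, was above 5 to 4. Scaling to the same total raised the count of higher members to 6 (Psmb10, Psmc3, Psmd1, Psmd2, Psmd5 and Psmd14), and without Rn45s to 7, with Psmc5. Under these scalings 10.3% and 11.4% of all measured genes were that much higher.

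**Figure D1:**
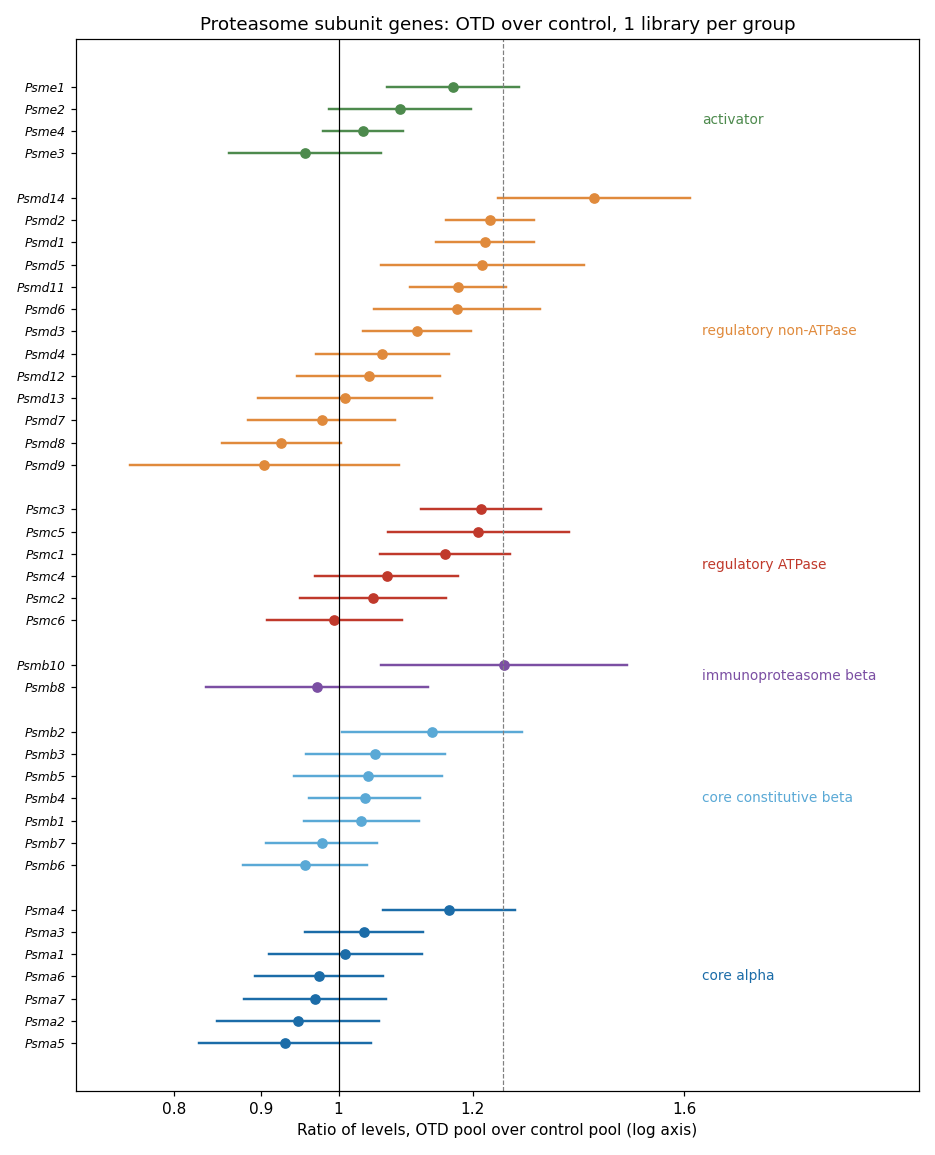
Ratio of levels, OTD over control, for the 39 measured members (points) with 95% counting intervals (lines), on a log axis and grouped by class; the dashed line marks a ratio of 5 to 4 without the pseudocount, which Psmb10 just reaches. Psmd14 is the highest at 1.41, and most core genes have intervals that hold 1.

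Promoter sequence is shown for the gene with the highest ratio (Psmd14), for 2 of the 3 constitutive catalytic subunits (Psmb5 and Psmb6) and for the immunoproteasome gene with the highest ratio (Psmb10). RefSeq promoters of GRCm38.p6 matched 35 of the 42 members. Each sequence is the stretch before the RefSeq gene start, up to 250 bases, shortened where an annotated exon begins. Capitals mark 4 searched motifs on either strand: the antioxidant response element core TGACNNNGC, the interferon-response GAS motif TTCNNNGAA, the GC box GGGCGG and the CCAAT box. The Psmd14 stretch is chr2:61711444-61711693 on the plus strand, Psmb5 chr14:54618023-54618245 on the minus strand, Psmb6 chr11:70525107-70525356 on the plus strand and Psmb10 chr8:105938445-105938642 on the minus strand.
Psmd14: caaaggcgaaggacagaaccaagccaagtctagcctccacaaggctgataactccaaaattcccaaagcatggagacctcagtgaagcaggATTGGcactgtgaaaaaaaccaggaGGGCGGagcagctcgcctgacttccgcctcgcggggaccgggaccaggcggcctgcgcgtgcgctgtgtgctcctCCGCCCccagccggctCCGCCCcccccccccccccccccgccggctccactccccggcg
Psmb5: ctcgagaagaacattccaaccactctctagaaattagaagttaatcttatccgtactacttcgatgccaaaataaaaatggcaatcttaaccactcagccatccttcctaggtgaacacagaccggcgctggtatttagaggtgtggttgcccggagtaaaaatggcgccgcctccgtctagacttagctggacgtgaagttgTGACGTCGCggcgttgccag
Psmb6: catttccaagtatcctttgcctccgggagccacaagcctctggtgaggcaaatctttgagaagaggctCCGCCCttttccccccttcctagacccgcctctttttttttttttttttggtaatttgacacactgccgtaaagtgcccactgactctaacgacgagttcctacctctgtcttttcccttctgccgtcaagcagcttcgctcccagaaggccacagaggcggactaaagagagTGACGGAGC
Psmb10: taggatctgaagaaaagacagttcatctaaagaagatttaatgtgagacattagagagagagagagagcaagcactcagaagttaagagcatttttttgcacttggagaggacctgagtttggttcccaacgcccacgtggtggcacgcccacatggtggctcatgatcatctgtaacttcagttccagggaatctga
Psmd14 held 3 GC boxes and 1 CCAAT box, Psmb5 1 antioxidant response element core, Psmb6 1 such core and 1 GC box, and Psmb10 none of the 4. Over the 250 bases before the start, the antioxidant response element core was found in 5 of 35 members (Psmb5, Psmb6, Psmc6, Psmd9 and Psmd12), or 14.3%, against 11.5% of 27025 genes. The GC box was found in 21 of 35 members, or 60.0%, against 35.4% of genes, and the CCAAT box in 13, or 37.1%, against 37.5%. The GAS motif was found in 1 of 35, Psmb8, against 8.13% of genes. These matches describe letters in a window and are not evidence of binding.

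Core alpha subunits form the outer rings and the gate. Psma4 was the only one of the 7 measured whose interval lay above 1: it had 65.1 in control and 75.6 in OTD, with a ratio of 1.16 (1.06 to 1.27). Psma5 was the lowest, at 42.4 in control and 39.5 in OTD, a ratio of 0.930 (0.827 to 1.05). Psma2 (47.6 and 45.0), Psma7 (60.9 and 58.9) and Psma6 (75.2 and 73.2) also had ratios below 1, at 0.947, 0.968 and 0.974, with intervals that held 1. Psma1 (51.2 and 51.6) and Psma3 (85.1 and 88.1) lay at 1.01 and 1.04. The alpha median log2 ratio of −0.04 turned to 0.02 after scaling to the same total and to 0.03 without Rn45s, so the alpha genes as a class had no stable side. Psma8, the testis form of an alpha subunit, was not measured, with 19 reads in control and 11 in OTD (levels 1.43 and 0.735).

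The catalytic beta subunits carry the caspase-like (Psmb6), trypsin-like (Psmb7) and chymotrypsin-like (Psmb5) sites. Psmb6 stood at 80.3 in control and 76.7 in OTD, a ratio of 0.955 (0.878 to 1.04). Psmb7 stood at 98.04 and 95.8, a ratio of 0.977 (0.906 to 1.05), and Psmb5 at 53.8 and 56.0, a ratio of 1.04 (0.941 to 1.15). All 3 intervals held 1. The non-catalytic beta subunits Psmb1 (89.9 and 92.7), Psmb4 (95.5 and 98.9) and Psmb3 (60.6 and 63.7) had ratios of 1.03, 1.04 and 1.05. Psmb2, at 35.5 and 40.3, had the highest ratio of the constitutive beta genes, 1.14, and an interval just above 1 (1.005 to 1.28). The 7 constitutive beta genes summed to a ratio of 1.02 (0.988 to 1.05). Annotated copies share sequence with some core genes: 57.1% of the 50-base stretches of the Psmb5 transcript, 55.8% of Psmb3 and 54.5% of Psma5 occur in transcripts of other genes in the annotation, none of them listed, so reads of these 3 genes are less certainly placed than their intervals say.

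**Figure D2:**
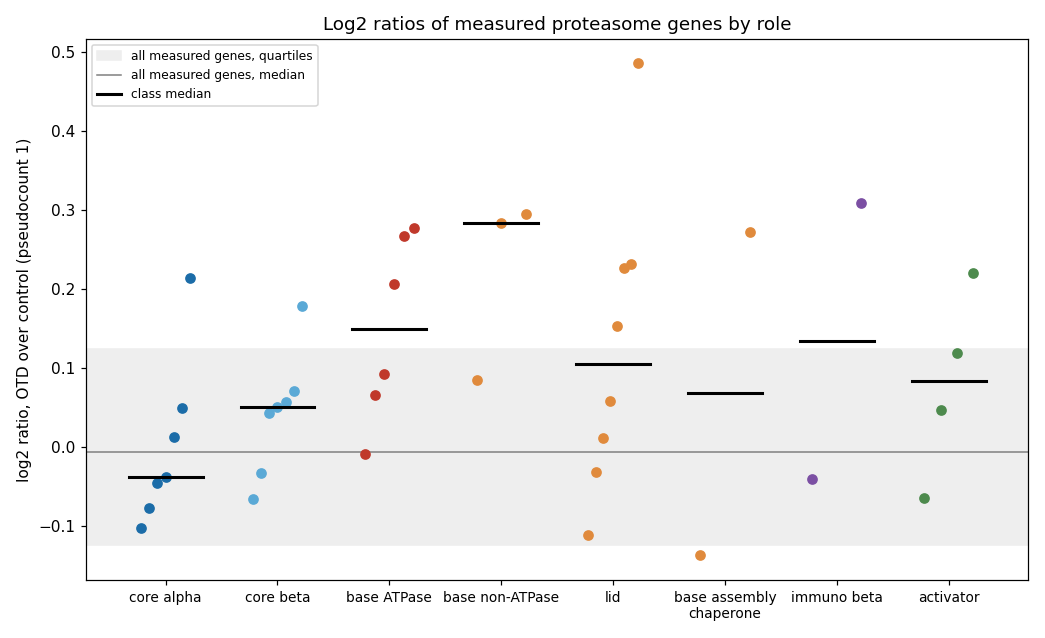
Log2 ratio, OTD over control, of each measured member (points) by role, with the class median (black bar), the median of all 7602 measured genes (grey line) and their quartiles (grey band). The base non-ATPase subunits have the highest class median of those drawn, and the alpha subunits are the only class drawn with a median below 0.

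The ATPase ring of the base (Psmc1 to Psmc6) unfolds substrates and threads them into the core. Psmc3 had 76.9 in control against 93.3 in OTD, a ratio of 1.21 (1.12 to 1.32). Psmc5 had 33.8 and 40.9, a ratio of 1.21 (1.07 to 1.37), and Psmc1 had 66.6 and 77.0, a ratio of 1.16 (1.06 to 1.26). The other 3 ATPases differed less: Psmc4 (57.2 and 61.1), Psmc2 (55.2 and 57.8) and Psmc6 (66.8 and 66.4) had ratios of 1.07, 1.05 and 0.994 with intervals that held 1. Thus 3 of the 6 ATPase genes were higher in OTD beyond counting error, and 5 of the 6 had a ratio above 1, where 18.6% and 48.4% of all measured genes did so.

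The large scaffold subunits of the base, Psmd1 and Psmd2, bind ubiquitin-like domains and shuttle proteins and were among the most read members. Psmd2 stood at 139 in control and 171 in OTD, a ratio of 1.23 (1.16 to 1.30). Psmd1 stood at 114 and 139.5, a ratio of 1.22 (1.14 to 1.30). The ubiquitin receptor gene Psmd4 was closer to parity, at 65.9 and 69.9 with a ratio of 1.06 (0.969 to 1.16). The 9 base genes summed to a ratio of 1.15 (1.12 to 1.18), and 8 of the 9 had a ratio above 1, as did 48.4% of all measured genes. Psmc6, the 1 below, turned above 1 when scaled to the same total or without Rn45s, where 60.6% and 64.7% of all measured genes were above 1. Psmd2 (chromosome 16, 20651652 to 20663414, GRCm38) shares 26.4% of its 50-base stretches with copies in the annotation that are not listed, and Psmd1 (chromosome 1, 86064387 to 86139151) shares 8.36%.

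The lid holds Psmd14, the metalloprotease that cuts ubiquitin chains off substrates as they enter. Psmd14 had the highest ratio of the measured members, at 28.6 in control against 40.5 in OTD, from 381 and 606 reads, with a ratio of 1.41 (1.24 to 1.61). Its log2 ratio of 0.49 exceeded that of 97.4% of all measured genes. It lies on chromosome 2 at 61711694 to 61800376 (GRCm38), with 12 exons in its longest coding transcript, and shares 1.61% of its 50-base stretches with another gene. Psmd7, the inactive partner with which it pairs in the lid, stood at 56.6 and 55.4, a ratio of 0.978 (0.885 to 1.08). Psmd14 reads relative to Psmd7 reads were 1.45 times as many in OTD as in control (1.23 to 1.71), a pair compared after its values were seen. Per kb, Psmd14 stayed below Psmd7 in both pools, at 18.6 against 35.8 in control and 26.3 against 35.0 in OTD.

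The other lid genes spanned both sides of 1. Psmd11, a lid scaffold subunit, stood at 119 and 140.5, a ratio of 1.18 (1.10 to 1.26). Psmd6 (41.2 and 48.4) and Psmd3 (97.9 and 109), also scaffold subunits, had ratios of 1.17 (1.05 to 1.31) and 1.11 (1.03 to 1.20). Psmd12 (58.2 and 60.7) and Psmd13 (39.8 and 40.1) had ratios of 1.04 and 1.01 with intervals that held 1. Psmd8 was the lowest lid gene, at 87.2 and 80.7 with a ratio of 0.925 (0.853 to 1.004). The 8 lid genes summed to a ratio of 1.09 (1.05 to 1.12), and base reads relative to lid reads were 1.06 times as many in OTD (1.01 to 1.10).

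Psmd5, Psmd9 and Psmd10 carry Psmd names but encode chaperones that assemble the base and leave the finished particle. Their levels per kb were the lowest of the regulatory genes, 4.52 to 6.86 in control and 5.23 to 7.52 in OTD. Psmd5 stood at 27.2 in control and 33.1 in OTD, a ratio of 1.22 (1.06 to 1.40). Psmd9 stood at 17.8 and 16.1, a ratio of 0.904 (0.753 to 1.09), the lowest of the measured members. Psmd10 was not measured (86 and 112 reads, levels 6.46 and 7.48, ratio 1.16, 0.866 to 1.55). Without these 3 genes the summed regulatory ratio was 1.12 (1.10 to 1.15).

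**Figure D3:**
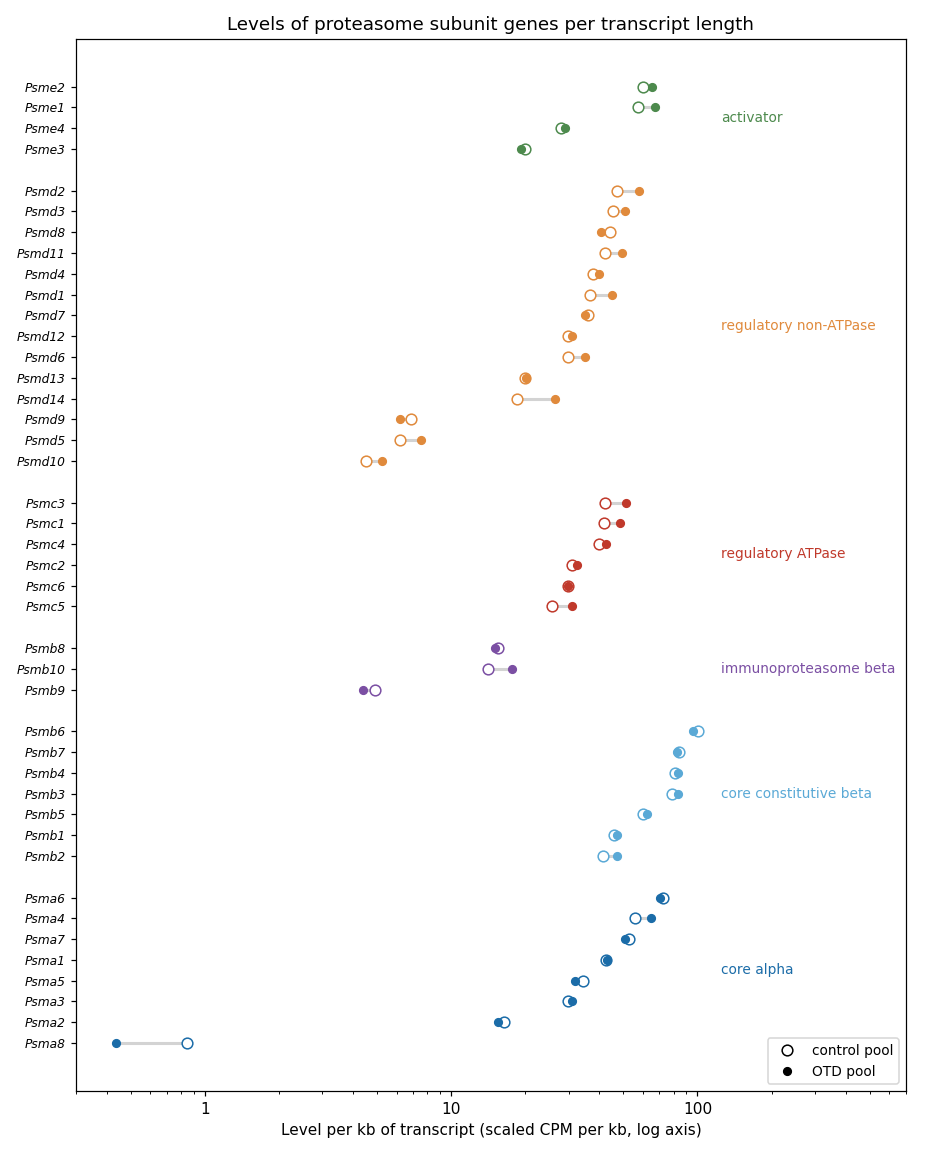
Level per kb of transcript (scaled CPM per kb, log axis) of all 42 members in the control pool (open circles) and the OTD pool (filled circles), grouped by class. Psmb6 is highest in both pools, and Psma8, Psmb9 and the assembly chaperones Psmd5, Psmd9 and Psmd10 are lowest in both.

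Levels per kb compare the genes with each other. In control the constitutive beta genes ran from 41.4 (Psmb2) to 101 (Psmb6) per kb with a median of 79.1, and the 7 measured alpha genes from 16.3 (Psma2) to 72.2 (Psma6) with a median of 42.6. The 6 ATPases ran from 25.7 (Psmc5) to 42.3 (Psmc3), with a median of 35.3. In OTD they ran from 29.7 (Psmc6) to 51.3 (Psmc3), so Psmc5 was no longer the lowest. Among the lid genes Psmd14 was lowest in control, at 18.6, below Psmd13 at 20.0, and in OTD Psmd13 was lowest at 20.2 and Psmd14 stood at 26.3. Across the 39 measured members, log2 levels per kb in the 2 pools had a Pearson r of 0.986 and a Spearman rho of 0.975. The points are genes that share the same 2 libraries, so this is a description.

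The immunoproteasome genes are induced by interferon and are most active in immune cells. Psmb10, which replaces Psmb7, stood at 18.4 in control against 23.05 in OTD, from 245 and 345 reads, with a ratio of 1.252 (1.06 to 1.48). Its log2 ratio of 0.31 was the second highest of the members and lay just under the size of 0.32. Psmb8, which replaces Psmb5, stood at 25.3 and 24.6 (337 and 368 reads), a ratio of 0.971 (0.835 to 1.13). Psmb9, which replaces Psmb6, was not measured, with 88 reads in control and 89 in OTD (levels 6.61 and 5.95) and a ratio of 0.899 (0.662 to 1.22). Of the 3 immunoproteasome genes, Psmb10 alone differed between pools beyond counting error. Their summed ratio, over the 2 measured genes, was 1.09 (0.975 to 1.22). The class median of 0.13 over 2 measured genes became −0.04 over all 3 genes without a filter.

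Compared with the constitutive partner per kb, the immuno form was the minor one in all 3 pairs and both pools. Psmb8 was at 0.260 of Psmb5 in control (0.228 to 0.296) and 0.242 in OTD (0.214 to 0.274). Psmb9 was at 0.0486 of Psmb6 in control (0.0386 to 0.0604) and 0.0458 in OTD (0.0365 to 0.0568). Psmb10 was at 0.166 of Psmb7 in control (0.144 to 0.191) and 0.213 in OTD (0.189 to 0.240). The Psmb10 to Psmb7 ratio was 1.28 times as high in OTD (1.07 to 1.54), that of Psmb8 to Psmb5 0.933 times (0.778 to 1.12) and that of Psmb9 to Psmb6 0.942 times (0.685 to 1.30). These comparisons are within a library, so the scaling between libraries does not touch them.

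Summed levels of the marker lists of other cells lay on both sides of parity, and 0 of the listed markers were at level 0 in either pool. The 5 general leukocyte markers summed to 31.7 in control and 36.1 in OTD, a ratio of 1.14 (1.002 to 1.30), and the 1 of them that was measured, Laptm5, had a ratio of 1.06 (0.888 to 1.27). Of the others, named after their values were seen, Ptprc had 6.76 and 9.42, a ratio of 1.39 (1.06 to 1.84). Tyrobp had 6.09 and 6.95, Cd52 0.0751 and 0.468 (1 and 7 reads) and Coro1a 1.20 and 0.668, with intervals that held 1. All 11 Kupffer cell or macrophage markers were listed and summed to 446.9 and 416.8, a ratio of 0.933 (0.900 to 0.967). Of these, 8 of 8 measured were below 1, as were 51.6% of all measured genes. The unmeasured ones, named after their values were seen, lay on both sides: Timd4 at 0.855, Marco at 1.18 and Cd68 at 1.28, with intervals that held 1. Of 9 lymphoid markers Cd4 alone was listed, at 1.73 and 1.07. The 6 erythroid markers stood furthest apart among lists with a measured gene, at 311 and 388, a ratio of 1.246 (1.20 to 1.30), with 4 of 4 measured above 1. The hepatocyte list had a summed ratio of 0.880 (0.878 to 0.882), with 5 of 6 markers below 1, as were 51.6% of all measured genes. That sum is mostly Alb (ratio 0.853), which held 81661 of 104618 in control. Single hepatocyte markers ran from 0.707 (Hnf4a) to 1.10 (Cps1). The other lists had summed ratios of 1.09 (neutrophil and monocyte), 0.963 (dendritic), 0.958 (sinusoidal endothelial), 0.972 (stellate and fibroblast), 0.934 (cholangiocyte) and 0.932 (cell cycle). Sums of the marker lists were not recomputed under the other scalings. The part of these cells in the Psmb10 difference was not tested.

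The activators open the core without the ATPase cap. Psme1 and Psme2 encode the alpha and beta chains of PA28, which interferon-gamma induces. Psme1 stood at 63.9 in control and 74.7 in OTD, a ratio of 1.17 (1.07 to 1.28), and Psme2 at 57.7 and 62.7, a ratio of 1.09 (0.987 to 1.20). Per kb the chains were near equal in each pool: Psme1 was at 0.959 of Psme2 in control (0.868 to 1.06) and 1.03 in OTD (0.944 to 1.12). Psme3, the nuclear PA28 gamma, stood at 53.3 and 51.0, a ratio of 0.956 (0.862 to 1.06). Psme4, which encodes PA200, had the highest level of the members, 181 and 187, on the longest of their transcripts (6491 bases), and a ratio of 1.03 (0.979 to 1.09). The 4 activators summed to a ratio of 1.05 (1.01 to 1.10), and their reads relative to core reads were 1.04 times as many in OTD (0.992 to 1.09). The copy Psme2b, which holds 59.3% of the 50-base stretches of Psme2, was listed at 21 and 19 reads, against 768 and 939 reads of Psme2.

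**Figure D4:**
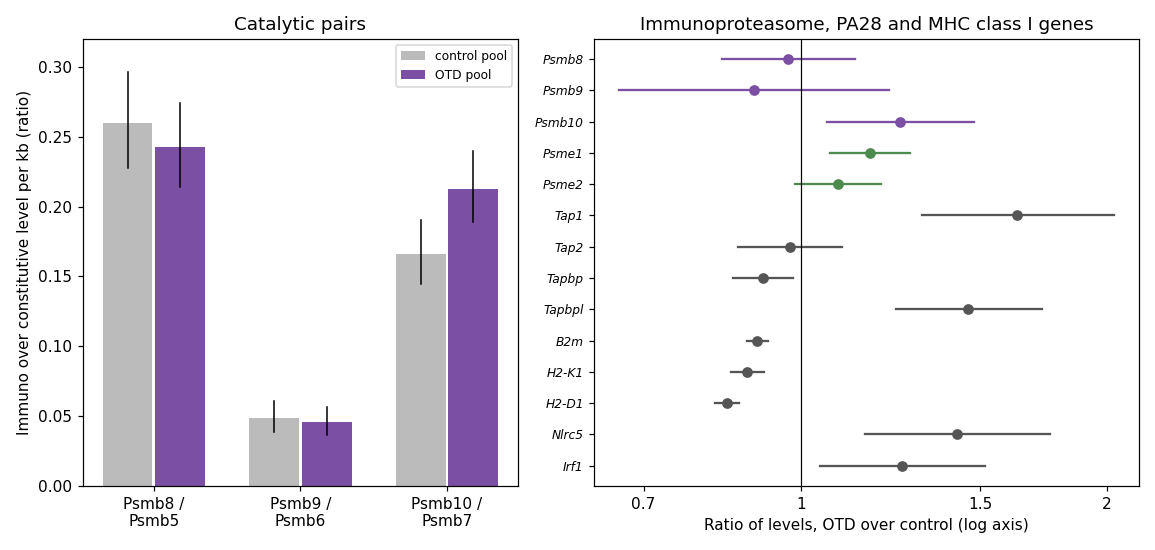
Left, level per kb of each immunoproteasome gene as a ratio to its constitutive partner in the control (grey) and OTD (purple) pools. Right, ratio of levels, OTD over control (log axis), for immunoproteasome (purple), PA28 (green) and MHC class I processing and interferon genes (grey). Lines are 95% counting intervals; Tap1 is the highest point on the right at 1.63, and Psmb8 and Psmb9 lie below 1.

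Psmb8 and Psmb9 sit in the MHC region of chromosome 17 beside the peptide transporter genes. In GRCm38, Psmb9 spans 34181987 to 34187764 on the minus strand and overlaps the first bases of Tap1, which spans 34187553 to 34197225 on the plus strand. Psmb8 follows at 34197721 to 34201454 and Tap2 at 34203527 to 34216321. Tap1, which with Tap2 carries proteasome products into the endoplasmic reticulum, stood at 9.99 in control and 16.3 in OTD, a ratio of 1.63 (1.32 to 2.03). Its neighbour Psmb9, whose annotated start is 211 bases away, had a ratio of 0.899, and Tap2 stood at 40.3 and 39.3 with a ratio of 0.975 (0.866 to 1.10). Tap1 reads relative to Psmb9 reads were 1.81 times as many in OTD (1.24 to 2.65), a pair chosen after its values were seen. No source used here says whether counting used strand, so reads from the overlap of Psmb9 and Tap1 may be misplaced.

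Genes of MHC class I peptide processing and loading, of which 13 of 13 were measured, had 6 ratios above 1 and 7 below. Of all measured genes 48.4% and 51.6% were so. The median log2 ratio of the 13 was −0.04 and ran from −0.10 to 0.04 over the alternatives. The 3 higher by the size of 0.32, which 7.1% of all measured genes were, were Tap1, the TAPBP-related loading factor gene Tapbpl (17.7 and 25.8, ratio 1.46, 1.24 to 1.72) and the class I transactivator Nlrc5 (11.3 and 16.0, ratio 1.42, 1.16 to 1.76). The chaperone Calr, at 536 and 643, had a ratio of 1.20. B2m, the light chain of class I molecules and the most abundant of the list, had 1025 and 928, a ratio of 0.905 (0.884 to 0.927), and the heavy chain H2-D1, named after its values were seen, had 785 and 664, a ratio of 0.846 (0.823 to 0.870). Of 17 interferon-linked genes, 13 were measured, with 7 above 1 and 6 below, beside the same 48.4% and 51.6% of all measured genes. Their median of 0.06 ran from −0.02 to 0.13 over the alternatives. Higher by the size of 0.32 were 4 of them, beside the same 7.1% of all measured genes: the immunity-related GTPases Irgm2 (30.8 and 43.8, ratio 1.42), Igtp (27.9 and 38.7, ratio 1.39) and Irgm1 (33.8 and 43.1, ratio 1.27), and, named after its values were seen, the interferon transducer Stat2 (39.0 and 49.6, ratio 1.27). Ifngr1, a chain of the interferon-gamma receptor, was the 1 gene lower by that size, as 4.95% of all measured genes were, at 22.6 and 17.1 (ratio 0.756, 0.638 to 0.896), and Iigp1, the most abundant, stood at 390.0 and 384 (ratio 0.986).

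The genes that control proteasome abundance did not share a direction. Nfe2l1, which encodes NRF1, stood at 234 in control and 190.2 in OTD, a ratio of 0.814 (0.774 to 0.857). Ddi2, the protease that activates NRF1, stood at 304 and 293, a ratio of 0.964 (0.923 to 1.01). Nfe2l2, which encodes NRF2, the regulator of antioxidant genes, stood at 72.2 and 81.8, a ratio of 1.13 (1.04 to 1.23), and Bach1, a repressor of the same DNA element, at 55.8 and 62.9, a ratio of 1.13 (1.02 to 1.24). The small partner protein gene Mafg stood at 14.5 and 19.4, a ratio of 1.34 (1.11 to 1.61). It was the 1 gene of the 8 measured that was past the size of 0.32, by which 7.1% of all measured genes were higher. The median log2 ratio of the 8 was 0.10, with 5 ratios above 1 and 3 below, where 48.4% and 51.6% of all measured genes were.

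Of the chaperones that build the core, 2 of 5 listed were measured and went opposite ways. Pomp, the maturation protein, stood at 56.6 and 68.3, a ratio of 1.21 (1.10 to 1.33), and Psmg1 at 14.2 and 12.2, a ratio of 0.856 (0.695 to 1.06). Of the 14 genes for proteins that bind the proteasome, 13 were measured, 7 above 1 and 6 below, where 48.4% and 51.6% of all measured genes were. Their median log2 ratio of 0.04 ran from −0.01 to 0.11 over the alternatives. Past the size of 0.32 were 0 of them, beside 7.1% of all measured genes higher and 4.95% lower. The PA28 gamma partner Fam192a had 13.8 and 17.2 (ratio 1.247, 1.03 to 1.51) and the thioredoxin-like Txnl1 76.2 and 87.6 (ratio 1.15, 1.06 to 1.249). Shfm1, the small lid subunit outside the naming rule, had 29.8 and 26.0 (ratio 0.873, 0.757 to 1.01), and Akirin2, a nuclear import factor of the proteasome, had 19.9 and 17.5 (ratio 0.879). AI314180, the proteasome adaptor also named Ecpas, was the most abundant at 147 and 150.2 (ratio 1.02).

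Ubiquitin and activating enzyme genes lay on both sides of 1. Ubb, a polyubiquitin gene, stood at 395 in control and 360.1 in OTD, a ratio of 0.912 (0.878 to 0.947). The fusion gene Rps27a, which also encodes a ribosomal protein, stood at 127 and 108, a ratio of 0.851 (0.794 to 0.911). The activating enzyme genes Uba6 (14.0 and 16.7) and Uba7 (11.3 and 13.2) had ratios of 1.20 and 1.17 with intervals that held 1. Of the 5 ubiquitin and activating enzyme genes, 2 had ratios above 1 and 3 below, and their median, −0.03, ran from −0.13 to 0.04 over the alternatives. Of 12 measured genes for shuttles and the p97 segregase, 7 were above 1 and 5 below, with a median of 0.02 that ran from −0.02 to 0.10 over the alternatives and 0 past the size of 0.32. Among all measured genes, 48.4% were above 1 and 51.6% below, and 7.1% were higher and 4.95% lower by that size. Vcp, the p97 ATPase that extracts proteins for degradation, stood at 350.5 and 397, a ratio of 1.13 (1.09 to 1.18). The shuttle Rad23b had 182 and 200.0 (ratio 1.10, 1.04 to 1.16), Ubqln2 had 23.2 and 25.9 (ratio 1.11) and the p97 adaptor Faf2 had 72.4 and 65.1 (ratio 0.898, 0.821 to 0.983).

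Transcript length moved with the log2 ratio over all genes. The 355 measured genes under 1000 bases had a median log2 ratio of −0.08, the 557 from 1000 to under 1500 bases −0.05, and the 1819 of 5000 bases or more 0.02. The members in the same bins had medians of 0.07 (5 members), 0.07 (12 members) and 0.05 (1 member). Members of the bin from 1500 to under 2000 bases had a median of 0.06 over 11, beside −0.02 over 770 genes. From 2000 to under 3000 bases, 8 members had a median of 0.02, beside −0.01 over 1503 genes. From 3000 to under 5000 bases, 2 members had a median of 0.28, beside 0.002 over 2360 genes. Within the members, log2 ratio and log2 length had a Pearson r of 0.06 over 39 genes. Over all 7364 measured genes with a length it was 0.08, so the relation was weak in both. Both values are descriptions only. After the subtraction by length and GC content, Psmb10, Psmc5 and Psmd14 were higher by the size of 0.32, as were 7.13% of the 7364 genes. The members then split 32 above 1 and 7 below, where 49.99% of the 7364 genes were above and 50.01% below.

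**Figure D5:**
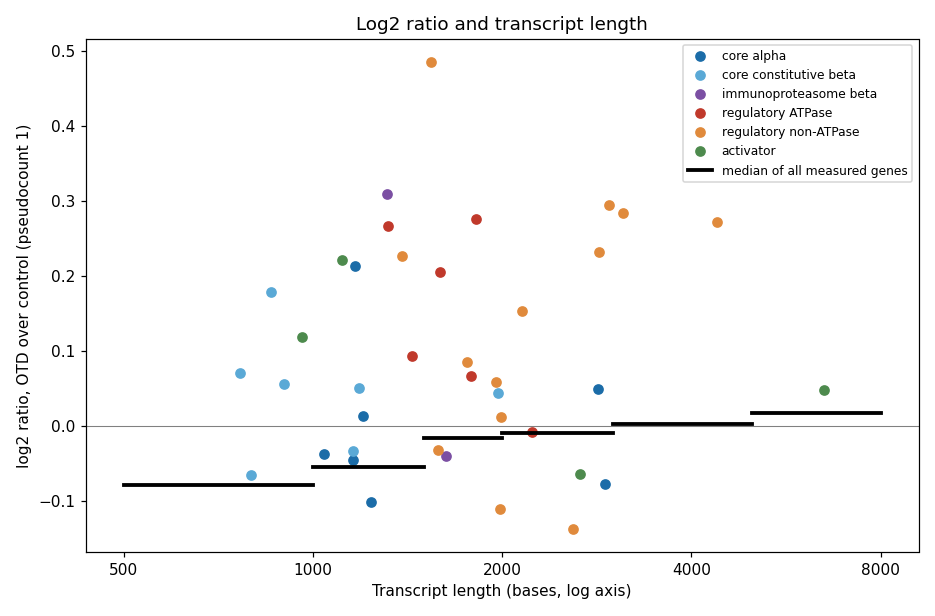
Log2 ratio, OTD over control, of the 39 measured members (points, coloured by class) against the length of the longest coding transcript (log axis), with the median of all measured genes in 6 length bins (black bars; the first bar also takes in shorter and the last longer genes). The medians of all genes run from −0.08 in the shortest bin to 0.02 in the longest, and Psmd14 lies highest at 0.49.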

How the data were processed

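Liver RNA of 2 pools, 1 library each, was sequenced by the authors; 200 ng of it went through rRNA removal and a directional library kit, per the labels' protocols. The deposited table gives a normalized signal per gene symbol and library. The tools were Bowtie2, edgeR, RSEM and Trimmomatic 0.38 and the build was mm10, per the submitters' processing notes, which state no roles. Annotation and gene filter: not given in the sources used here. Dividing by the smallest step gave whole reads for 100% of the deposited values in both columns (tolerance 1e-06), and the columns behaved as CPM divided by 0.981 (control) and 1.02 (OTD). With 1 library per group a count test on these reads has no residual degree of freedom and was not run. Each column was given its group by its name.

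Intervals of ratios are 95% and exact (Clopper-Pearson, from how a gene's reads divided between the libraries), and ratios between genes or classes carry exact conditional intervals of the odds ratio. Gene models, lengths and coordinates came from GENCODE M21 on GRCm38, which matched all 42 members. Each member was accounted for, and genes of the pathway lists were named if most abundant or among the 4 largest log2 ratios. Some genes were taken out of the lists before they were summarised and are not reported here. The members and lists were chosen with earlier results of these data known. The method was tested on simulated reads with counting error alone, which cannot show how it fares with variation among mice or pools. Software was scipy 1.17.1, numpy 2.4.6, pandas 2.3.3 and matplotlib 3.10.9 under Python 3.11.15.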

Additional observations from a re-analysis of the deposited data

How the results depend on the processing

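No paired analysis was possible because each group has 1 library, and for the same reason no replicate could be left out. Alternatives were 4 other scalings, pseudocounts of 0.5 and 10, a mean level of at least 50 or no filter, a 1.5-fold size, an interval beyond 1 added to the size of 0.32, and, added after seeing the data, a subtraction by length and GC content and another transcript choice for the catalytic pairs. For every gene of these pairs the other transcript choice had the same length, so the pair values could not move. Of 630 recomputed values, with those included, 30 left the limits set around the reported value or, for counts, moved by over 1.5 times. Those limits were the counting interval for ratios. For medians they were the medians of the interval limits of the single genes, which is not an interval of the median. A reversal was defined only for log2 ratios of at least 0.32 in size, among members Psmd14 alone, and it kept its sign. Smaller medians did change sign: core alpha in 4 of 9 alternatives, the ubiquitin and MHC class I lists in 2 of 9 each, and some others in 1. None of the medians of the base, lid, ATPase and non-ATPase genes changed sign: the base ran from 0.15 to 0.28 and the lid from 0.06 to 0.18.

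Scaling to the same total gave summed ratios of 1.05 for core alpha, 1.06 for core beta, 1.06 for the core, 1.16 for ATPases, 1.17 for non-ATPases, 1.16 for all regulatory genes, 1.19 for the base, 1.13 for the lid and 1.12 for all members, with 6 members below 1 and 6 past the log2 size of 0.32. Without Rn45s in the total these were 1.06, 1.07, 1.07, 1.17, 1.18, 1.18, 1.21, 1.14 and 1.13, with 1.11 for activators, 4 members below 1 and 7 higher. Under these scalings 39.4% and 35.3% of all measured genes were below 1, and 10.3% and 11.4% were higher by the size of 0.32. A mean of at least 50 left 0 members past the size of 0.32, since Psmd14 is below it, a median of 0.26 for core assembly chaperones (1 gene) and −0.13 for ubiquitin genes. At that mean 5.65% of all genes were higher and 5.24% lower by the size of 0.32. At 1.5-fold 0 members were higher. Without a filter 1 member, Psma8, was lower by the size of 0.32, as were 7.27% of all listed genes. After the subtraction by length and GC content 7 members were below 1 and 3 higher by the size. Of the 7364 measured genes with a length, 50.01% and 7.13% were so. Depth limits Psma8, Psmb9 and Psmd10, whose intervals hold 1 and are the widest of the members.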
